A study of Mus musculus with 48 samples.

Results

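The 33 transcripts described here are products of macrophages and platelets, found by matching the symbols of a list to Ensembl gene rows in a matrix of 54752 genes. They comprise the 3 chains of complement C1q, 13 surface receptors of macrophages, 5 leukocyte adaptors and pan-leukocyte genes, 9 lysosomal or secreted products and 3 platelet genes. The members are picked by name, from a list made with earlier results of these data known, and all 33 rows were present. The question was whether inflammatory transcripts in sorted lymphatic endothelial cells (LECs) moved together with RNA of leukocytes carried along with the sorted cells.

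The libraries came from C57BL/6 mice with eGFP knocked into the Prox1 locus, so that the reporter follows the promoter of a lymphatic transcription factor. Every mouse carried this reporter and received a minipump. The ctrl and angII pumps held bovine serum albumin as a counterpart of the VEGFC protein, which the angII+VEGFC pumps held. The ctrl mice received no agent, the angII mice received angiotensin II, and the angII+VEGFC mice received angiotensin II with VEGFCc156s, a lymphangiogenic form of VEGFC, for several weeks. Ages were 8 to 16, labelled as months although the methods of the study give weeks. LECs of the heart and of the diaphragm and blood endothelial cells (BECs) of the heart were taken by flow sorting from digests cleared of red cells, by exclusion of dead and of CD45.2-bearing cells and selection for CD31, and eGFP told LECs from BECs. The cardiomyocyte libraries came from the pellet of the digested heart, which was not sorted, so any leukocyte in that pellet was kept. Each of the 4 populations had 4 ctrl, 5 angII and 3 angII+VEGFC libraries, 48 in all, and the libraries of 1 mouse share its number in the labels. The third angII library of diaphragm LECs came from a mouse with no heart libraries, so 11 mice gave both kinds of LEC.

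Macrophages of the heart take up dying cells and debris and are recognised by the receptor CSF1R, on which their survival depends, and by the 3 chains of C1q, which start the classical complement pathway. Their other products include lysozyme, cathepsins and chemokines. Platelets are fragments of megakaryocytes with no nucleus, which carry the RNA that the megakaryocyte packed into them, including that of the chemokines PF4 and PPBP and of the adhesion receptor subunit GP9. The antigen CD45, against which the endothelial cells were sorted, is the product of Ptprc and sits on nearly all leukocytes but not on platelets.

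The values are TPM, which are normalized for transcript length and for the total of each library. They keep no read counts, so the depth is unknown and no counting interval can be given. As a stand-in for depth, each endothelial library had between 12924 and 25896 genes that reached 1 TPM. The lymphatic marker list of 7 genes summed to between 18170 and 43488 TPM in LECs and to between 216 and 708 TPM in heart BECs, and the 5 cardiomyocyte markers to between 4718 and 14602 TPM in cardiomyocytes and to at most 521 TPM in any sorted library, so the labels matched the marker genes. Library 3 of diaphragm LEC ctrl stood apart with 1370 TPM of B cell markers, against 4.55 to 192 TPM in the other 11 libraries of that population, and with 145 TPM of neutrophil markers, against at most 11.3 TPM. A second library, angII 3 of diaphragm LECs, held 45.6 TPM of Ptprc with Lyz2 listed at 0. It also held 41.6 TPM of T and NK cell markers, against at most 31.3 TPM in the other libraries of that population. Its B cell markers summed to 74.7 TPM, within the range of the others. Whether lymphocytes had a part in its Ptprc was not tested. In bulk RNA, fewer cells of a type and less RNA per cell cannot be told apart.

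Promoter sequences are shown for 2 of the C1q chains, whose levels followed that of C1qa across the cardiomyocyte libraries, and for the neighbouring platelet genes Pf4 and Ppbp, whose relation differed in sign between heart BECs and cardiomyocytes. C1qb, C1qc and C1qa lie side by side on the minus strand of chromosome 4, with C1qa at chr4:136895917-136898803, C1qc at chr4:136889804-136893065 and C1qb at chr4:136880129-136886187 (GRCm38). Ppbp and Pf4 are neighbours on the plus strand of chromosome 5, at chr5:90768518-90770063 and chr5:90772435-90773383. The 250 bases before the RefSeq start of each gene follow, 5′ to 3′ in the direction of the gene (GRCm38.p6, RefSeq). Capitals mark the letters GAGGAA, or TTCCTC on the other strand, the core bound by the myeloid factor PU.1.
C1qb, chr4:136886201-136886450, minus strand: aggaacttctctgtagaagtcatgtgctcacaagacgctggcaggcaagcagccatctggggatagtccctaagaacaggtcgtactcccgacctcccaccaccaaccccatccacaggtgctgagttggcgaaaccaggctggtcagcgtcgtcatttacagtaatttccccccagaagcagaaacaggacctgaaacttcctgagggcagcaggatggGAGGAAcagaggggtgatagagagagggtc
C1qc, chr4:136892915-136893164, minus strand: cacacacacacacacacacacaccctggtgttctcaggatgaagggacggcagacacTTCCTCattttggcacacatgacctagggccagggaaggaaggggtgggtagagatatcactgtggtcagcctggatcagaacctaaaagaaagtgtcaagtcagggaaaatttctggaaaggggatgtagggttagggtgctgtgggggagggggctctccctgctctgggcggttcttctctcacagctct
Pf4, chr5:90772185-90772434, plus strand: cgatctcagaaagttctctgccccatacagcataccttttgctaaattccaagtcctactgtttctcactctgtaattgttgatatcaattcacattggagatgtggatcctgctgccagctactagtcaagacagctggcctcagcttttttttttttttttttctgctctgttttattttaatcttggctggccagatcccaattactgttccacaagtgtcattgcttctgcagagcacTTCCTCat
Ppbp, chr5:90768268-90768517, plus strand: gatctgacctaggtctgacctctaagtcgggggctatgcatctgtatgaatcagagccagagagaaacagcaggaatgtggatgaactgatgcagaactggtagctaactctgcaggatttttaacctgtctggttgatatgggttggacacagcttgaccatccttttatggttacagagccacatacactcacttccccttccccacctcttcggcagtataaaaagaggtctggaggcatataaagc
Of these windows, those of C1qb, C1qc and Pf4 held the PU.1 letters and that of Ppbp did not. RefSeq promoters matched 29 of the 33 members in 37 windows, and 19 windows of 17 genes held GAGGAA on either strand, against 23.25% of 32851 promoters of the same length. The letters AGATAA, a core of the GATA factors of megakaryocytes, stood in 3 windows of Fcrls, Ccr2 and Ptprc, against 9.99% of all promoters, and in none of the 3 platelet genes. The motifs can share a letter, Fcrls held both and counts under each, and a match of letters is not a bound site.

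In the cardiomyocyte pellet all 33 transcripts were tested, and most were abundant. C1qb averaged 275.5 TPM over the 12 libraries, C1qa 170.4 TPM, C1qc 164 TPM and Lyz2, the lysozyme of macrophages, 621 TPM. As a ratio of mean TPM over the 12 libraries, C1qa of sorted heart LECs was 6.27% of that of the heart pellet. The same ratio was 3.91% for LECs of the diaphragm, which is another tissue, and 2.75% for heart BECs. By median the sorted populations were closer, at 3.49 TPM for heart LECs, 3.68 TPM for diaphragm LECs and 3.17 TPM for heart BECs. The pellet's median was 155 TPM. Of the 12 heart LEC libraries, 4 were listed at 0 and 6 reached 1 TPM. The map of all members by library shows the pellet as a bright block and the sorted cells as a darker one broken by a few rows.

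**Figure D1:**
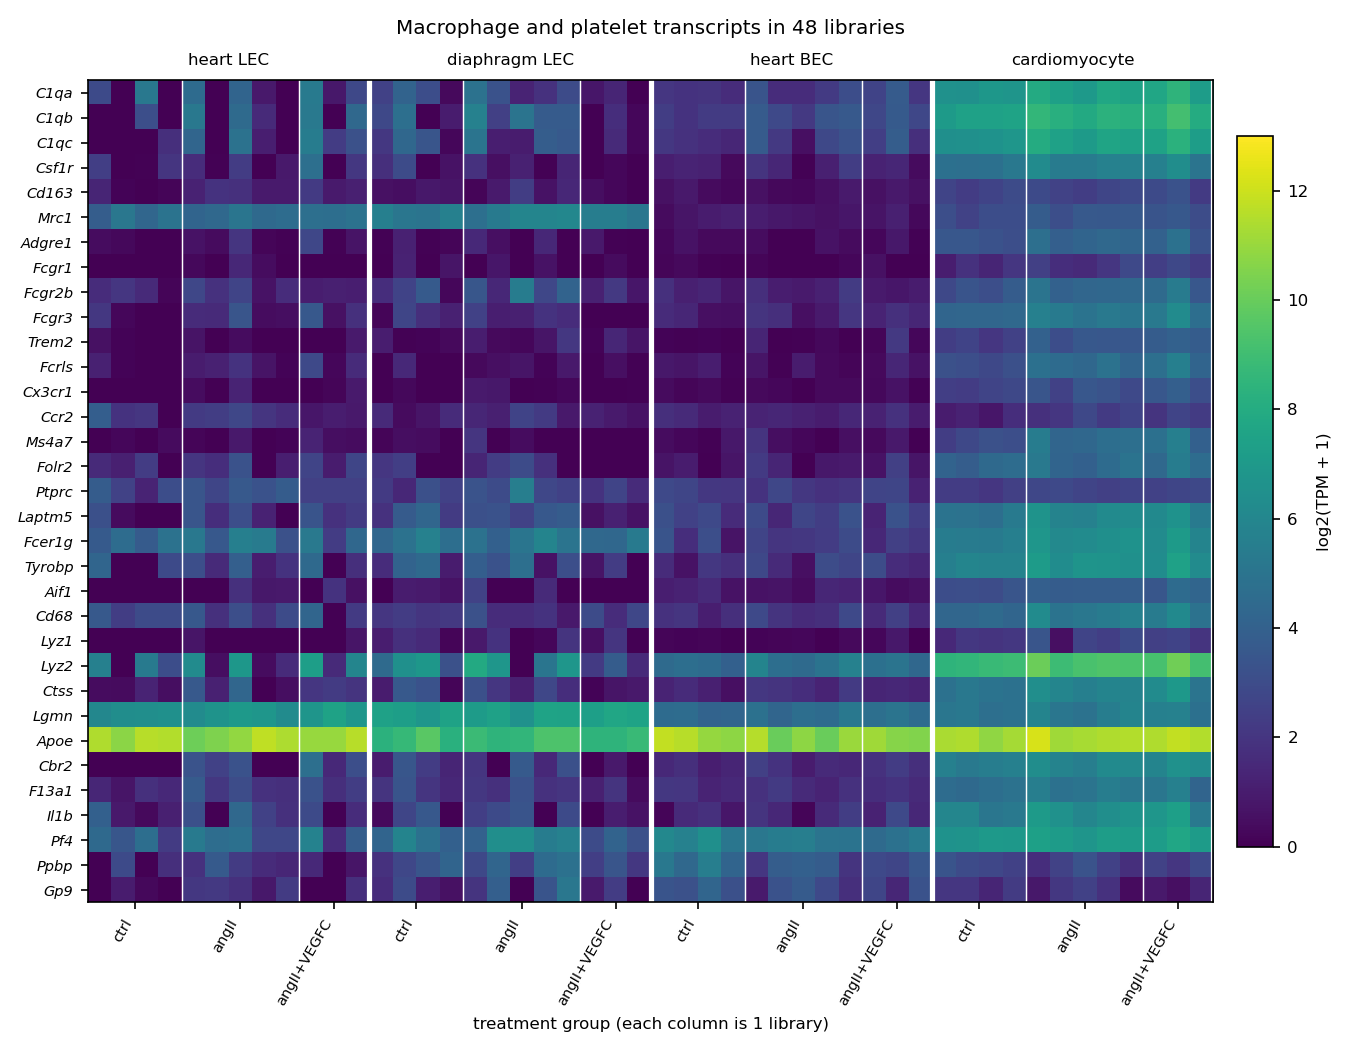
Level of each of the 33 members (rows) in each of the 48 libraries (columns, in replicate order within ctrl, angII and angII+VEGFC), as log2(TPM + 1) on the colour scale. The cardiomyocyte pellet is bright for most rows, and in sorted cells Apoe, Lgmn and Pf4 stand out, with Mrc1 and Fcer1g in LECs.

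In sorted heart LECs the C1q chains came and went between libraries. C1qa was 6.65, 0, 35.8 and 0 TPM in the 4 ctrl libraries, 22.5, 0, 17.2, 0.864 and 0 TPM in the angII libraries and 38.2, 0.809 and 6.11 TPM in the angII+VEGFC libraries. Each treatment thus had libraries near 0 and libraries above 6 TPM, and the groups overlapped. C1qb was listed at 0 in 3 of the 4 ctrl libraries and reached 36.9 TPM in angII+VEGFC, and C1qc was listed at 0 in 3 ctrl libraries and reached 42.3 TPM in angII+VEGFC.

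Lyz2 in heart LECs followed the same libraries. It was 49.1, 0, 39.7 and 7.44 TPM in ctrl, 76.1, 0.419, 115, 0.347 and 2.00 TPM in angII and 155, 1.96 and 60.2 TPM in angII+VEGFC. Csf1r ranged from 0 to 25.7 TPM and Cd68, a lysosomal glycoprotein, from 0 to 18.0 TPM. Correlations with C1qa across the 12 heart LEC libraries were taken on the log2(TPM + 1) scale. The highest were 0.90 for Lyz2, 0.85 for C1qb, 0.77 for Pf4 and 0.75 for Folr2, a folate receptor of resident macrophages. C1qc had 0.59, Csf1r 0.55 and Cd163 0.31, and the lowest were Mrc1 at -0.26 and Ppbp at -0.36. The members thus did not all move together, and these values describe libraries that share their normalization.

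Ptprc did not follow C1qa in sorted endothelium. It was 12.6, 4.84, 1.49 and 7.55 TPM in heart LEC ctrl, 9.92, 5.68, 11.3, 8.60 and 12.7 TPM in angII and 4.48, 4.51 and 4.44 TPM in angII+VEGFC, and its correlation with C1qa was -0.24 there, 0.06 in LECs of the diaphragm and 0.04 in BECs. Its mean in heart LECs, 7.34 TPM, was 150% of that in the unsorted pellet, 4.90 TPM. Of the other 32 members, only Mrc1, Lgmn and Ccr2, a monocyte chemokine receptor, had a higher mean in heart LECs than in the pellet.

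In heart BECs the C1q chains were low and listed at 0 in no library. C1qa was 3.21, 2.79, 2.81 and 2.15 TPM in ctrl, 9.52, 2.12, 2.13, 3.68 and 7.30 TPM in angII and 5.15, 12.2 and 3.13 TPM in angII+VEGFC, and over the 12 libraries C1qb ran from 2.75 to 12.4 TPM and C1qc from 0.471 to 13.2 TPM. Lyz2 in heart BECs ranged from 14.9 to 56.5 TPM.

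The 3 C1q chains had similar median proportions in the libraries that held all of them, with a wide spread in LECs. All 3 reached 1 TPM or more in 4 of 12 heart LEC, 7 of 12 diaphragm LEC, 11 of 12 heart BEC and 12 of 12 cardiomyocyte libraries. In those libraries the median ratio of C1qb to C1qa was 1.43, 1.56, 1.36 and 1.61 in that order, but it ran from 0.506 to 4.70 in diaphragm LECs, against 1.42 to 1.92 in cardiomyocytes. The ratio of C1qc to C1qa ran from 0.127 to 5.01 in diaphragm LECs and from 0.836 to 1.07 in cardiomyocytes. For Mrc1 to C1qa the median ratio was 1.31, 9.22, 0.116 and 0.0543. Its lowest values were 0.679 in heart LECs and 0.896 in diaphragm LECs, against a highest value of 0.0852 in cardiomyocytes. The rule for these ratios left out libraries in which the chains disagreed, and it kept no ctrl library of heart LECs. There, ctrl library 3 held 35.8 TPM of C1qa and 7.72 TPM of C1qb with C1qc listed at 0. Its ctrl library 4 held 2.34 TPM of C1qc with C1qa listed at 0.

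**Figure D2:**
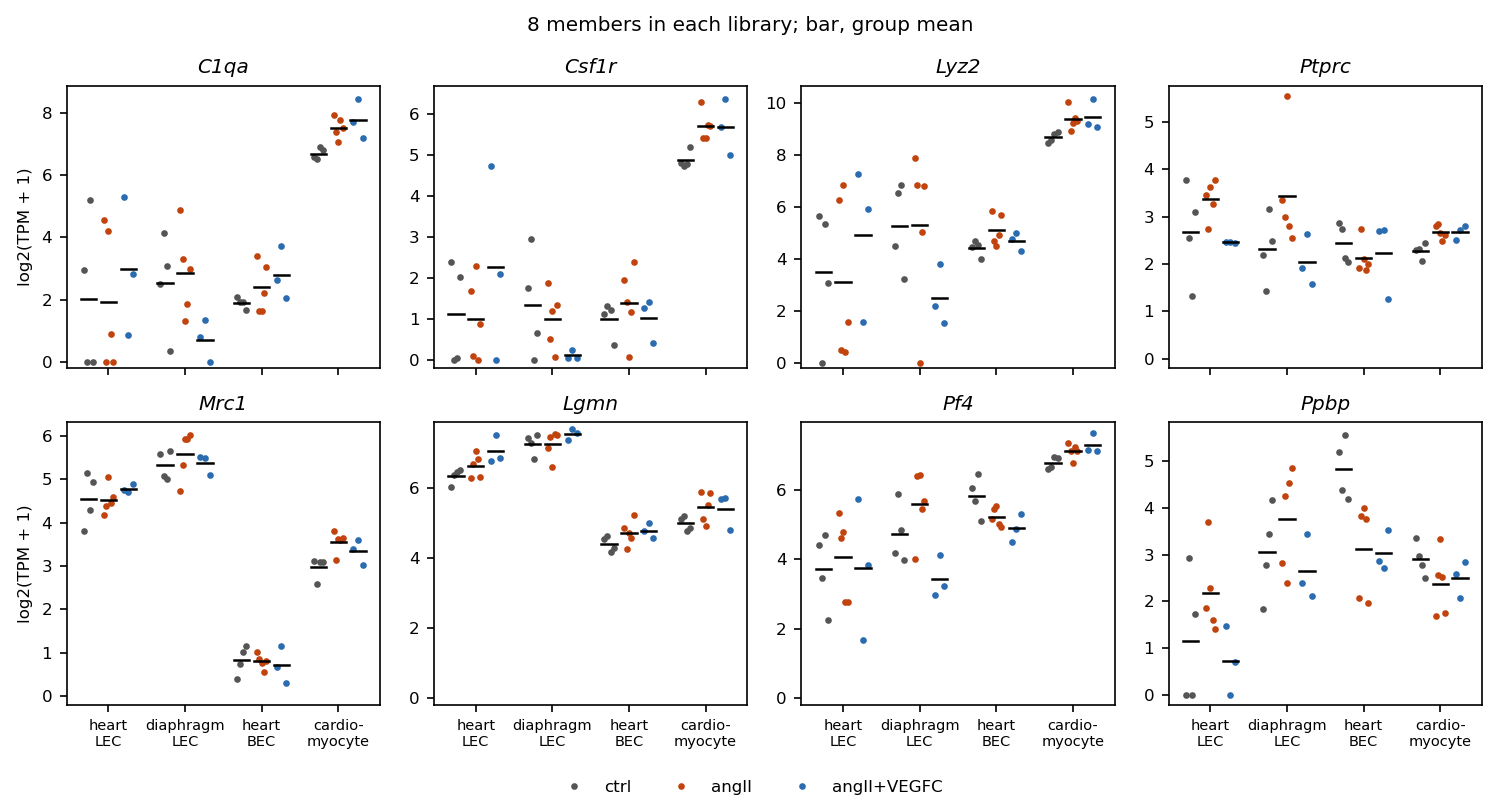
Level of 8 members in each library on the log2(TPM + 1) scale, by population and treatment; bars are group means. C1qa, Csf1r and Lyz2 are highest in cardiomyocytes and scattered in both LEC populations, whereas Mrc1 and Lgmn are highest in LECs.

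The comparison of heart LECs with heart BECs of the same 12 mice, fitted by limma with the mouse as a block, asked which members belonged to one kind of endothelium more than the other. Of 27 members tested, 3 were higher and 3 were lower in heart LECs, against 13.3% of all 29402 genes called higher and 10.3% called lower. Mrc1, the mannose receptor, which lymphatic endothelium is known to make as macrophages do, ran from 13.04 to 34.4 TPM over the heart LEC libraries and from 0.234 to 1.24 TPM over those of BECs, with no overlap (log2 fold change 3.81, SE 0.18, adjusted p = 1.07e-11). Lgmn, the lysosomal protease legumain, averaged 101.7 and 24.1 TPM (2.01, SE 0.13, adjusted p = 8.68e-10). Fcer1g, the signalling chain shared by Fc receptors, averaged 23.3 and 4.32 TPM (2.07, SE 0.36, adjusted p = 2.57e-04).

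The 3 platelet genes were lower in heart LECs than in heart BECs. Pf4 averaged 19.2 TPM in the lymphatic and 42.8 TPM in the blood endothelium (log2 fold change -1.48, SE 0.30, adjusted p = 0.00106), Ppbp 2.80 and 15.6 TPM (-2.19, SE 0.42, adjusted p = 6.07e-04) and Gp9 1.46 and 7.49 TPM (-1.81, SE 0.38, adjusted p = 0.00154). None of the C1q chains passed the test in this comparison, with -0.10 (SE 0.53) for C1qa. Of 13 other platelet genes the summed level was 25.2 to 61.8 TPM in LECs of the heart, against 36.9 to 136 TPM in BECs. Erythroid markers also differed, at 7.24 to 6532 TPM in heart LECs and 5221 to 31327 TPM in heart BECs. Whether carried-over blood had a part in these platelet values was not tested.

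Between the 2 LEC populations of 11 mice, 4 of 30 members were called, against 2.08% of 29664 genes higher and 2.30% lower in the diaphragm. Apoe, a lipid carrier made by macrophages and by many other cells, was lower in diaphragm LECs at 458 TPM against 2358 TPM on average (log2 fold change -2.36, SE 0.14, adjusted p = 2.28e-09). Ppbp (1.93, SE 0.35, adjusted p = 0.00188), Mrc1 (0.85, SE 0.16, adjusted p = 0.00322) and Lgmn (0.79, SE 0.11, adjusted p = 8.30e-05) were higher. Leaving the block out gave 5 members called between the LEC populations, and 6 between heart LECs and heart BECs as with the block.

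Cardiomyocytes and heart BECs of the same mice differed in 32 of 33 members, 30 of them higher in cardiomyocytes, against 11.0% of 23213 genes called higher and 64.3% called lower. C1qb was higher by 5.18 log2 units (SE 0.10, adjusted p = 3.41e-17), C1qa by 4.98 (SE 0.12), Il1b, the inflammatory cytokine interleukin-1 beta, by 4.76 (SE 0.19) and Pf4 by 1.72 (SE 0.18). Ppbp (-1.09, SE 0.19, adjusted p = 6.11e-05) and Gp9 (-1.32, SE 0.18, adjusted p = 4.14e-06) were lower in cardiomyocytes. Ptprc missed the test (0.29, SE 0.17, adjusted p = 0.1203). The populations differ in isolation and in sequencing batch as well as in cell type, and these cannot be told apart here. Under quantile normalization Ptprc was called higher (0.81) and Ppbp missed the threshold (-0.43, adjusted p = 0.0504).

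In the cardiomyocyte pellet, angII went with higher levels of most macrophage members, though few passed the test. Trem2, a lipid-sensing receptor, was 4.21, 5.13, 3.11 and 4.77 TPM in ctrl and 15.4, 7.41, 10.9, 10.6 and 10.7 TPM in angII. Fcrls, an Fc receptor-like protein, was 8.29, 7.63, 6.16 and 8.02 TPM in ctrl and 26.5, 21.97, 19.0, 28.7 and 16.95 TPM in angII. For both genes every angII library lay above every ctrl library. Both passed the test across all genes, Trem2 with a log2 difference of 1.22 (SE 0.20, adjusted p = 0.0420 by limma) and Fcrls with 1.48 (SE 0.25, adjusted p = 0.0460).

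These were the only members called of 33, against 0.0892% of 15691 genes. Ms4a7, a membrane protein of the MS4A family found in macrophages, was 4.18, 6.17, 8.24 and 7.67 TPM in ctrl and 42.8, 17.7, 19.1, 24.6 and 26.2 TPM in angII, with no overlap, and missed the threshold narrowly (1.82, SE 0.33, adjusted p = 0.0516). At an unadjusted p under 0.05, 23 members were higher and 0 lower, against 8.00% of all genes higher. In 20 of 33 members every angII library was above every ctrl library, against 5.10% of all genes. The median log2 fold change was 0.84 over the members and 0.12 over all genes tested, and under quantile normalization, which moved the median of all genes by -0.13, it was 0.66 over the members.

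All 3 C1q chains were among the 20. C1qa was 93.9, 89.6, 118 and 109.9 TPM in ctrl, 242, 165.5, 132, 215 and 180.4 TPM in angII and 207, 346 and 144.5 TPM in angII+VEGFC. The lowest angII library was above the highest ctrl library (log2 fold change 0.84, SE 0.24, adjusted p = 0.198). Cd68 was 17.9 to 21.2 TPM in ctrl and 29.9 to 76.0 TPM in angII (1.22, SE 0.27, adjusted p = 0.0957). Csf1r was 25.6 to 35.4 TPM in ctrl and 41.3 to 76.9 TPM in angII (0.85, SE 0.26, adjusted p = 0.225).

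Among the receptors, 10 of 13 were higher at an unadjusted p under 0.05, and the 3 that missed it were Cd163 (0.02), a haemoglobin scavenger receptor, Folr2 (0.36) and Fcgr1 (0.60), the high-affinity IgG receptor. All 5 leukocyte adaptors and pan-leukocyte genes were higher by the same criterion, among them Fcer1g (1.05, SE 0.22) and Ptprc (0.43, SE 0.18). Of the 9 lysosomal and secreted products, 5 were higher, including Lyz2 (0.75, SE 0.25) and Il1b (1.05, SE 0.35), and Lgmn (0.52), Apoe (0.37), Lyz1 (0.51) and the coagulation factor gene F13a1 (0.54) missed that criterion. Il1b was 62.6, 60.6, 33.8 and 37.6 TPM in ctrl and 136.5, 95.9, 60.6, 83.7 and 102 TPM in angII, and the ranges overlapped.

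None of the 3 platelet genes passed at an unadjusted p under 0.05 in the pellet. Ppbp was 9.25, 6.90, 5.83 and 4.70 TPM in ctrl and 2.22, 4.94, 9.07, 4.75 and 2.39 TPM in angII (-0.56, SE 0.32, adjusted p = 0.605). Gp9 was 3.14, 3.11, 1.54 and 3.72 TPM in ctrl and 0.773, 3.298, 4.75, 2.64 and 0.298 TPM in angII (-0.43, SE 0.40, adjusted p = 0.788). Pf4 was 96.7, 100.3, 125 and 122 TPM in ctrl and 164, 140.1, 110.5, 152 and 140.3 TPM in angII (0.35, SE 0.18, adjusted p = 0.553). All 3 overlapped between groups.

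The pellet of angII+VEGFC mice differed from ctrl in the same way. Trem2 was 12.8, 15.4 and 12.9 TPM (log2 fold change 1.40, SE 0.23, adjusted p = 0.0264), Fcrls 26.1, 47.99 and 17.5 TPM (1.73, SE 0.29, adjusted p = 0.0264) and Ms4a7 26.4, 48.6 and 14.7 TPM (1.89, SE 0.37, adjusted p = 0.0386). All 3 lay above every ctrl library, and 3 of 33 called compares with 0.663% of all genes. At an unadjusted p under 0.05, 21 members were higher, against 8.15% of all genes, and 19 had no overlap with ctrl, against 9.19%. Against angII, angII+VEGFC gave 0 members called, in a contrast with 0% of all genes called, and 0 members at an unadjusted p under 0.05, against 2.41% of all genes. C1qa differed between these groups by 0.23 (SE 0.28) and Csf1r by -0.08 (SE 0.30). The angII and angII+VEGFC contrasts share their ctrl libraries.

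**Figure D3:**
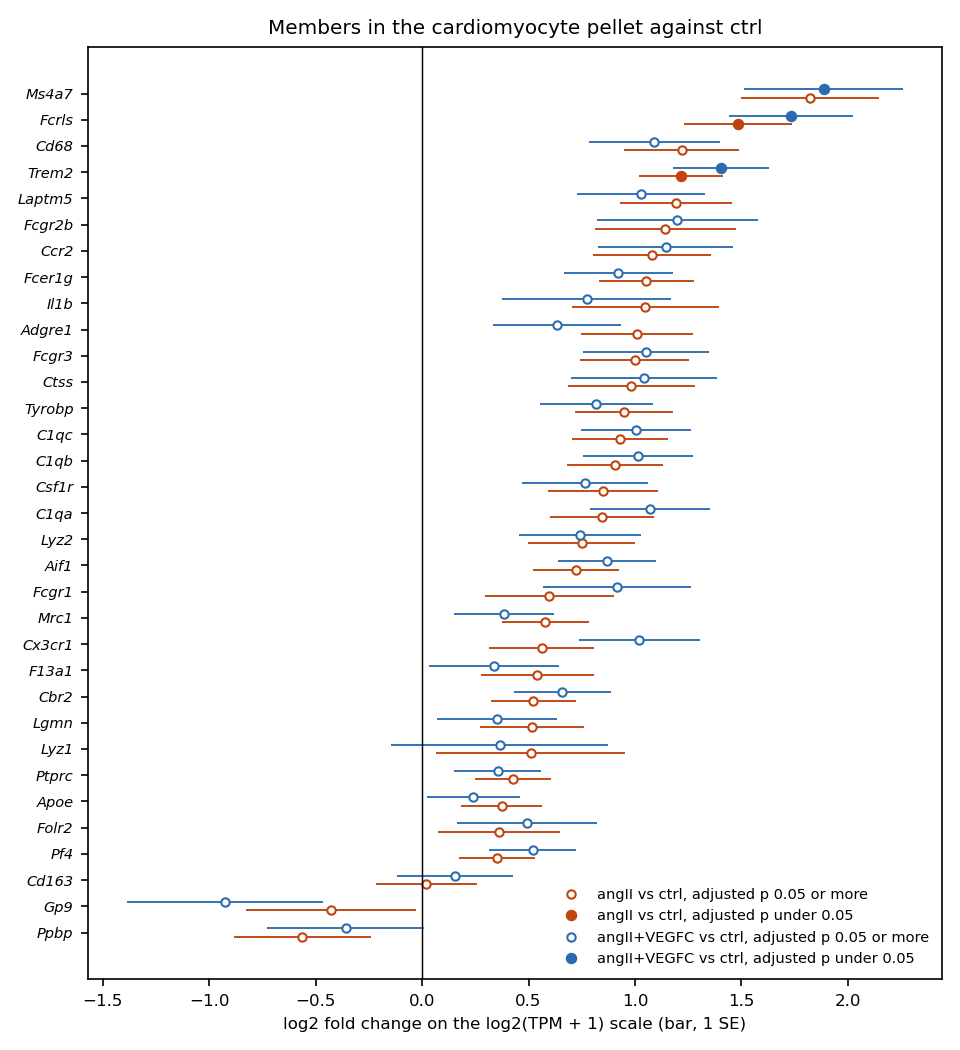
Log2 fold change of each member in the cardiomyocyte pellet against ctrl, for angII and angII+VEGFC, with bars of 1 SE; filled points have an adjusted p under 0.05 over all genes. The filled points are Fcrls and Trem2 in both comparisons and Ms4a7 in angII+VEGFC, and Ppbp and Gp9 lie left of 0.

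Other lists were read in the same fits. Of 20 further macrophage genes, 13 were higher at an unadjusted p under 0.05 in angII with a median of 0.73, and of 11 tested platelet genes 1 was, with a median of 0.02. Of the 5 fibroblast markers 3 were higher, with a median of 0.82. The 6 tested T and NK cell genes gave 0, with a median of -0.15, and the 5 tested neutrophil genes gave 1, which was lower, with a median of -0.81. Whether these other cell types had a part in the members' values was not tested.

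The count of members called was not steady between fits. For angII against ctrl it was 0 or 1 when any 1 library was left out, and for angII+VEGFC against ctrl it ran from 0 to 17, the 17 without angII+VEGFC library 3, whose C1qa was the lowest of its group. The count higher at an unadjusted p under 0.05 stayed between 18 and 27 for angII and between 16 and 26 for angII+VEGFC.

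In sorted heart LECs, 0 of 26 tested members were called in any treatment contrast, with Adgre1, Fcgr1, Trem2, Cx3cr1, Ms4a7, Aif1 and Lyz1 too low to be tested, against 0.0261% of 26803 genes in angII against ctrl and 0% in the other 2 contrasts. At an unadjusted p under 0.05, angII gave 2 members higher, against 8.94% of all genes. These were Gp9, which was 0, 1.01, 0.214 and 0 TPM in ctrl and 3.31, 3.40, 2.54, 0.797 and 3.86 TPM in angII (log2 fold change 1.66, SE 0.52, adjusted p = 0.283), and Cbr2, a carbonyl reductase, at 1.82 (SE 0.84, adjusted p = 0.446). Cbr2 was listed at 0 in all 4 ctrl libraries and was 8.92, 4.72, 8.62, 0 and 0 TPM in angII. C1qc had a difference of 1.46 (SE 1.02) and C1qa one of -0.53 (SE 1.14), and neither passed. Leaving out 1 library moved the 2 higher members to between 1 and 4.

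Between angII+VEGFC and angII in heart LECs, 2 members were lower at an unadjusted p under 0.05, Ppbp (-1.997, SE 0.71, adjusted p = 0.416) and Gp9 (-1.62, SE 0.62, adjusted p = 0.422), against 9.75% of all genes. The largest differences were those of Lyz2 (3.02, SE 1.64), C1qa (2.13, SE 1.35) and C1qc (2.01), none of which passed. Within batches the median was taken over all 33 members as plain differences of group means. It was -1.12 in batch 1, with 1 angII+VEGFC library, and 0.85 in batch 2, so it had opposite signs. The count of higher members, 0, reached 6 with 1 library left out, angII library 1 or 4 or angII+VEGFC library 1 or 2 being those that moved it. Against ctrl, angII+VEGFC gave 3 members higher at an unadjusted p under 0.05, Cbr2 (3.12, SE 0.97), C1qc (3.46, SE 1.18) and Lgmn (0.77, SE 0.26), each with an adjusted p of 0.915, against 1.73% of all genes. Leaving out ctrl library 1 or angII+VEGFC library 1 or 2 moved this count, to between 1 and 11. C1qb (2.74, SE 1.43) did not pass.

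The heart LEC libraries had 19957 to 25896 genes that reached 1 TPM in angII, 16756 to 18884 in angII+VEGFC and 16131 to 24086 in ctrl. With that number as a covariate, the median member difference between angII and ctrl went from 0.61 to -0.42. Erythroid markers, which are another sign of blood in the tissue, summed to between 2063 and 6532 TPM in heart LEC angII libraries, to between 7.24 and 2186 TPM in ctrl and to between 12.95 and 575 TPM in angII+VEGFC. Their part in the platelet values of heart LECs was not tested.

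In diaphragm LECs, 0 of 27 tested members were called in any contrast, Cd163, Fcgr1, Fcrls, Cx3cr1, Ms4a7 and Aif1 being too low to be tested, where 0% of 23839 genes were. C1qb was 6.08, 26.0, 0 and 0.996 TPM in ctrl, 51.5, 4.46, 31.1, 12.5 and 12.3 TPM in angII and 0, 2.30 and 0.173 TPM in angII+VEGFC. In diaphragm LECs, Pf4 was 17.3, 58.0, 27.9 and 14.8 TPM in ctrl, 15.3, 84.9, 85.7, 43.3 and 50.9 TPM in angII and 6.91, 16.5 and 8.30 TPM in angII+VEGFC, where 1 angII library reached down into the last group. For C1qb every angII library exceeded every angII+VEGFC library, while ctrl overlapped both groups. Its difference between angII+VEGFC and angII was -4.12 (SE 0.66, unadjusted p = 1.99e-05, limma adjusted p = 0.474).

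Of 27 members, 11 were lower in angII+VEGFC than in angII at an unadjusted p under 0.05, against 7.66% of all genes, and the median was -1.65 over the members and -0.21 over all genes. They were the 3 C1q chains, Csf1r (-1.28), the IgG receptors Fcgr2b (-1.71) and Fcgr3 (-1.80), Folr2 (-2.25), the lysosomal membrane protein Laptm5 (-2.33), the adaptor Tyrobp (-1.997), Cbr2 (-1.72) and Pf4 (-2.31). Fcgr3 was 4.65, 1.15, 1.24, 2.70 and 2.13 TPM in angII and listed at 0 in all 3 angII+VEGFC libraries. Laptm5 was 8.15, 8.66, 4.98, 10.9 and 12.8 TPM in angII and 0.495, 1.27 and 0.563 TPM in angII+VEGFC. C1qb, Fcgr3, Laptm5 and Ctss, a cathepsin, had no overlap between the groups, 4 members against 7.35% of all genes.

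The number of genes that reached 1 TPM, the stand-in for depth, moved with these groups, at 20062 to 23691 in angII, 14963 to 18373 in angII+VEGFC and 12924 to 18116 in ctrl, and its part in the members' values was not tested beyond its use as a covariate, with which the median was -1.95. As plain differences of group means over all 33 members, the median within batch 1, with 1 angII+VEGFC library, was -0.85. Within batch 2 it was -0.80. These take in members too low to be tested, so their size does not compare with that of the fitted medians. The number of lower members stayed between 5 and 11 with 1 library left out, with 3 settings under 8, those without angII library 1, angII+VEGFC library 2 or angII+VEGFC library 3. C1qb stayed between -4.70 and -3.55 with 1 library left out. Lyz2 differed by -2.51 (SE 1.46) and did not pass, with angII library 3 listed at 0 beside 31.8 to 235 TPM in the other 4.

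Against ctrl, angII gave 1 diaphragm LEC member higher at an unadjusted p under 0.05, C1qb (1.94, SE 0.58, adjusted p = 0.297), against 13.9% of all genes. Gp9 (1.33) and Fcgr2b (1.25) had the next largest differences and did not pass. In angII+VEGFC against ctrl 7 members were lower by that criterion, among them Laptm5 (-2.09, SE 0.61), C1qb (-2.18, SE 0.68) and Csf1r (-1.64, SE 0.56), against 0.390% of all genes, each with an adjusted p of 1. Leaving out ctrl library 2 or angII+VEGFC library 2 or 3 moved the 7 by over 1.5 times, and over all settings the count lay between 0 and 10. Lyz2 (-2.502, SE 1.503) was the largest difference and did not pass.

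In heart BECs, 0 of 25 tested members were called in any contrast, 8 receptors or lysozyme genes being too low to be tested, where 0% of 21281 genes were. At an unadjusted p under 0.05, angII gave 3 members higher, against 2.57% of all genes, C1qb (0.98, SE 0.32), Lyz2 (0.74, SE 0.25) and the cathepsin Ctss (0.78, SE 0.27), with adjusted p-values from 0.809 to 0.820. The same contrast gave 3 members lower, against 2.83% of all genes, and these were the 3 platelet genes. Ppbp was 35.4, 19.9, 45.8 and 17.2 TPM in ctrl, 3.22, 13.1, 15.1, 12.6 and 2.92 TPM in angII and 6.29, 5.53 and 10.5 TPM in angII+VEGFC. Both treated groups lay below every ctrl library (angII -1.78, SE 0.46, adjusted p = 0.697).

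Gp9 in heart BECs was 9.34, 8.24, 18.1 and 8.06 TPM in ctrl and 0.916, 8.73, 12.1, 6.42 and 2.36 TPM in angII (-1.12, SE 0.48, adjusted p = 0.914). Pf4 was 65.9, 51.1, 88.7 and 33.9 TPM in ctrl and 35.0, 43.3, 45.9, 31.5 and 29.7 TPM in angII (-0.63, SE 0.25, adjusted p = 0.889). Both overlapped between groups. Of 11 other platelet genes 4 were lower at an unadjusted p under 0.05, with a median of -0.79, and 0 of 13 tested macrophage genes outside the members were. Erythroid markers in heart BECs summed to 5221 to 7980 TPM in ctrl, 5747 to 31327 TPM in angII and 6948 to 12314 TPM in angII+VEGFC. Their part in the platelet values of heart BECs was not tested.

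Within batch 1 the Ppbp difference in heart BECs was -2.68 and within batch 2 it was -0.49. The count of 3 lower members fell to as few as 1 when 1 library was left out, the lowest values being without ctrl library 1 or angII library 5, and the count of 3 higher members rose to 9 without angII library 3. The angII+VEGFC libraries gave 0 members at an unadjusted p under 0.05 against angII, where 2.59% of all genes passed. Against ctrl they gave C1qa (0.89) and C1qb (0.85) higher, against 2.49% of all genes, and Pf4 (-0.92) and Ppbp (-1.68) lower, against 3.02%.

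The difference of treatment responses between endothelial populations was tested by an interaction over 36 libraries without a block, and 0 of 31 members were called in any of 6 contrasts. The share of all 32754 genes called was 0.00611% for angII in heart LECs against diaphragm LECs and 0% in the other 5. At an unadjusted p under 0.05, the angII response was higher in heart LECs than in heart BECs for Ppbp (2.71, SE 0.78, adjusted p = 0.426) and Gp9 (2.51, SE 1.00), against 7.19% of all genes in either direction, as for all interactions here. It was higher in diaphragm LECs than in heart BECs for Ppbp (2.504), Gp9 (2.34) and Ptprc (1.40), against 11.0% of all genes. Heart and diaphragm LECs gave 0 members, against 9.70%.

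For angII+VEGFC against angII, 8 members differed between heart and diaphragm LECs at an unadjusted p under 0.05, all higher in heart LECs, against 4.88% of all genes. Laptm5 had 3.03 (SE 0.94, adjusted p = 0.881), C1qb 4.30 (SE 1.52, adjusted p = 0.889) and Cbr2 2.98 (SE 1.05, adjusted p = 0.881). With 1 of the 36 libraries left out the count lay between 1, without heart LEC angII+VEGFC library 1, and 15, without heart LEC angII+VEGFC library 2. Heart LECs and heart BECs gave 0 members, against 6.43%, and diaphragm LECs and heart BECs gave C1qb (-3.26) and Laptm5 (-2.26), against 7.00%. With the mouse as a replicate block, fitted as a random effect, the count between heart and diaphragm LECs was 10 and 0 members were called.

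Pf4 kept company with different genes in different populations. Pairs of Pf4, C1qa, Ppbp and Gp9 were chosen after their values had been seen, 12 relations in all, so their p-values describe these libraries only. In the cardiomyocyte pellet Pf4 rose with C1qa (r = 0.96, rho = 0.97, permutation p = 1.00e-05, the smallest the resamples can give, adjusted p = 1.20e-04, n = 12) and fell as Ppbp rose (r = -0.77, rho = -0.80, permutation p = 0.00395, adjusted p = 0.00948). With treatment means subtracted these were 0.92 and -0.80, and without the 2 libraries farthest from the median 0.92 and -0.72.

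In heart BECs the pattern was turned round. Pf4 rose with Ppbp (r = 0.82, rho = 0.80, permutation p = 0.00113, adjusted p = 0.00452) and its relation to C1qa was negative and did not pass (r = -0.52, rho = -0.60, permutation p = 0.0848, adjusted p = 0.113). Within batches the relation of Pf4 to Ppbp was 0.95 and 0.80, and that to C1qa -0.79 and -0.74, and without the 2 farthest libraries the first was 0.61. With treatment means subtracted they were 0.67 and -0.26. In heart LECs Pf4 rose with C1qa (r = 0.77, rho = 0.77, permutation p = 0.00576, adjusted p = 0.0115), at 0.89 and 0.71 within batches, while its relation to Ppbp was 0.19. In diaphragm LECs the relation of Pf4 to C1qa was 0.44 (adjusted p = 0.179), at -0.41 and 0.89 within batches.

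Ppbp and Gp9 rose together in heart BECs (r = 0.88, rho = 0.83, permutation p = 1.60e-04, adjusted p = 9.60e-04). They also did so in cardiomyocytes (r = 0.77, rho = 0.59, permutation p = 0.00393, adjusted p = 0.00948). In diaphragm LECs they did as well (r = 0.68, rho = 0.70, permutation p = 0.0159, adjusted p = 0.0273). The rank relation in cardiomyocytes did not pass by permutation (adjusted p of rho = 0.0698). Without the 2 farthest libraries r was 0.82, 0.63 and 0.43 in that order. In heart LECs the relation was 0.55 and did not pass (adjusted p = 0.101).

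**Figure D4:**
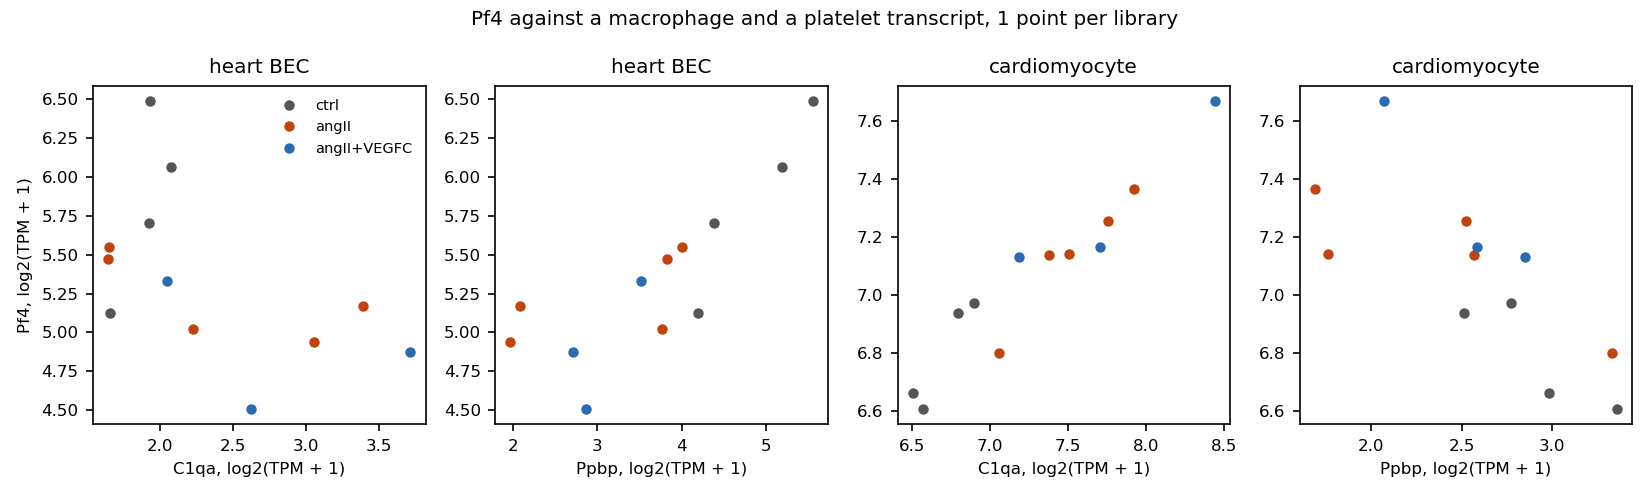
Pf4 against C1qa and against Ppbp, each on the log2(TPM + 1) scale, in heart BEC and cardiomyocyte libraries; each point is 1 of 12 libraries, coloured by treatment. Pf4 climbs with Ppbp in heart BECs (r = 0.82) and with C1qa in cardiomyocytes (r = 0.96).

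Libraries of the same mouse were compared for C1qa, Ptprc and Pf4 in 12 relations between populations. C1qa of heart BECs rose with C1qa of the cardiomyocyte pellet of the same heart (r = 0.79, permutation p = 0.00167, adjusted p = 0.02004, rho = 0.69, adjusted p of rho = 0.0913, n = 12). It was 0.78 with treatment means subtracted and 0.53 without the 2 mice farthest from the median. C1qa of heart LECs did not follow that of the pellet (r = 0.04) or of heart BECs (r = 0.06). Pf4 of heart BECs and of the pellet were inversely related and did not pass (r = -0.62, rho = -0.76, adjusted p = 0.193 and 0.0722), and the remaining relations had r between -0.27 and 0.34 and did not pass.

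The relation of C1qa to inflammatory transcripts within sorted endothelium was then examined, in 94 relations over 3 populations that included Il1b and the number of genes detected. None had an adjusted p under 0.05 by permutation. The highest in heart LECs were chemokines, Ccl6 (r = 0.79, rho = 0.77, permutation p = 0.00392, adjusted p = 0.157), Ccl9 (r = 0.74, rho = 0.76, permutation p = 0.00666, adjusted p = 0.157), Ccl4 (r = 0.61), Ccl3 (r = 0.59) and Cxcl2 (r = 0.56), all with n = 12. Ccl6 was 0.77 and 0.88 within the batches, 0.81 with treatment means subtracted and 0.65 without the 2 libraries farthest from the median.

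The order was similar in diaphragm LECs, with Ccl6 (r = 0.81, rho = 0.75, permutation p = 0.00203, adjusted p = 0.157), Ccl9 (r = 0.72, rho = 0.71, permutation p = 0.0103, adjusted p = 0.193) and Ccl4 (r = 0.68, rho = 0.63, permutation p = 0.0167, adjusted p = 0.224) first. Il1b had r = 0.50 in LECs of the heart, 0.61 in those of the diaphragm and 0.74 in BECs, and passed in none. The next in diaphragm LECs outside the members were Cxcl11 (r = 0.47) and Ccl2 (r = 0.44). The lowest relations also did not pass. In heart LECs Tlr3, a receptor of double-stranded RNA, had r = -0.56, the adhesion molecule Vcam1 had -0.36 and the membrane-bound chemokine Cx3cl1 had -0.32, and the last 2 were positive in diaphragm LECs, at 0.21 and 0.43. In diaphragm LECs the lowest were Tlr3 (-0.36), Ptgs2 (-0.30), the inducible cyclooxygenase, and Tnfaip3 (-0.29).

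The median r was 0.09 over 31 genes in LECs of the heart, 0.33 over 29 genes in those of the diaphragm and 0.33 over 31 genes in BECs. The number of genes detected had r = 0.04, 0.18 and 0.22 with C1qa. With Csf1r in place of C1qa the medians were -0.12, -0.001 and 0.40, and 14 of 29 relations in diaphragm LECs were positive, against 24 with C1qa. With Ptprc in place of C1qa, 1 relation in heart LECs, a positive one, and 2 in diaphragm LECs, 1 of them positive, had an adjusted p under 0.05. The Ptprc values of diaphragm LECs include 45.6 TPM in angII library 3, against 9.17 TPM in the next library.

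**Figure D5:**
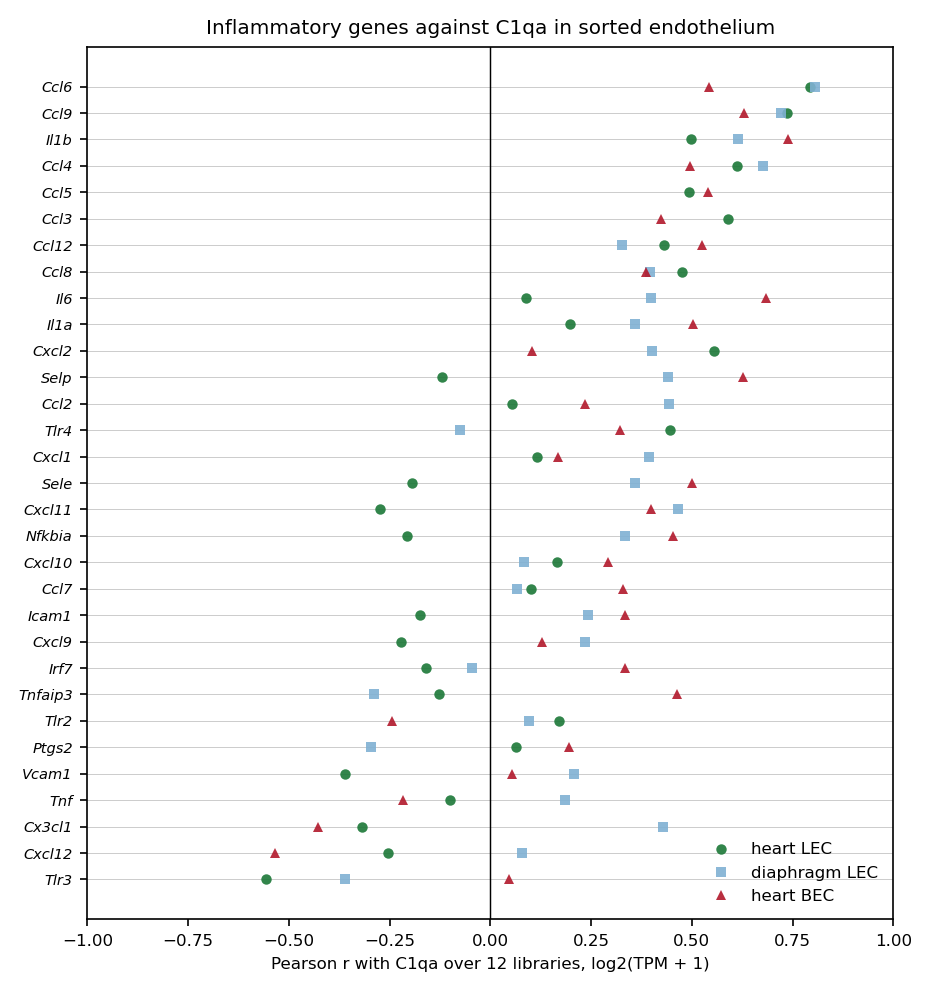
Pearson correlation of each inflammatory gene with C1qa over the 12 libraries of each endothelial population, on the log2(TPM + 1) scale. Ccl6, Ccl9 and Ccl4 lie on the right in all 3 populations, and Tlr3 lies on the left in both LEC populations.

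C1qa was also put into the fit across all genes as a covariate. In heart LECs the inflammatory genes had a median absolute shift of 0.05 log2 units for angII against ctrl, 0.19 for angII+VEGFC against angII and 0.14 for angII+VEGFC against ctrl. In diaphragm LECs the shift was 0.06 for angII, 0.48 for angII+VEGFC against angII and 0.42 for angII+VEGFC against ctrl. Single chemokines moved far in both populations. In heart LECs Ccl6 went from 2.08 to 0.95, Ccl4 from -0.82 to -2.11 and Cxcl2 from -0.29 to -1.29 in angII+VEGFC against angII. In diaphragm LECs Ccl6 went from -2.18 to -0.26, Ccl4 from -2.03 to -0.65 and Ccl9 from -1.45 to -0.22 in the same contrast. These chemokines had some of the highest r with C1qa in the same libraries, so large shifts follow from that choice. Over all inflammatory genes tested in that contrast, 18 of 30 had a smaller absolute difference with the covariate in heart LECs. In diaphragm LECs 11 of 28 did. None of the inflammatory genes had an adjusted p under 0.05 in either fit. At an unadjusted p under 0.05 in either direction, the count of 30 tested in heart LEC angII went from 10 to 11. Of the 10 without the covariate, Ccl7 and Ptgs2 were lower and the others higher, and the 8.94% of all genes covers higher ones only. The count went from 7 to 6 in heart LECs for angII+VEGFC against angII and stayed at 1 against ctrl. Of 28 in diaphragm LECs it went from 4 to 5 for angII, from 2 to 1 for angII+VEGFC against angII and from 1 to 2 against ctrl. The shares of all genes given above for these contrasts cover 1 direction each. They do not match these counts, which take both directions, so the counts cannot be set against them. For angII against ctrl in heart LECs Cxcl1, a neutrophil chemokine, was 1.01 (SE 0.27) without and 1.04 (SE 0.27) with the covariate.

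Of the members themselves, Lyz2 (r = 0.90) and C1qb (r = 0.85) were closest to C1qa in heart LECs. In diaphragm LECs these were Lyz2 (r = 0.86) and C1qc (r = 0.84). Other members were less close, with C1qc at 0.59, Csf1r at 0.55 and Mrc1 at -0.26 in heart LECs. In diaphragm LECs C1qb had 0.62, Csf1r 0.64, Cd68 0.001 and Mrc1 -0.43. Among genes outside the 33 members with a mean of 5 TPM or more, those most like C1qa in heart LECs were Ddx56, Itgav, Ppp3cb, Spsb2 and Tapt1, with r between 0.83 and 0.86 among 11424 genes over 12 libraries. In diaphragm LECs the non-members most like it were A230020J21Rik, Ccl6, Pik3r1, Cox8b and Gm10288, with r between 0.78 and 0.85 among 10646 genes.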

How the data were processed

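RNA of 48 libraries was reverse transcribed with a low-input kit from 2 kinds of material, sorted endothelial cells and a cardiomyocyte pellet. The authors aligned reads to GRCm38 with STAR 2.5.3a, quantified Ensembl genes with Salmon 0.12.0, and deposited 1 matrix in TPM, whose library totals were 997657 to 999929 TPM. Count tests cannot be run on TPM, and depth is unknown.

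Symbols were matched for 54723 of 54752 genes. Groups, mouse, age and batch came from the labels. Genes that reached 1 TPM in 3 or more of the 12 libraries of a population entered fits on log2(TPM + 1) with limma 3.58.1 (R 4.3.3) with the variance trend, the 3 treatments in one model, and age and batch as covariates (age for cardiomyocytes), with Benjamini-Hochberg adjustment over all genes at 0.05. Fold changes on this scale understate those of low genes. Populations were compared with the mouse as a fixed block, since the labels give libraries of 1 mouse its number, and without it the number of members called was 6, 5 and 32. Within 1 population each library is a different mouse, so p-values there measure the spread between mice. In the population comparisons they measure the spread of differences within mice. The main interaction fit took its 36 libraries as independent, although most mice gave several of them.

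Correlations used 100000 permutations, two-sided, in Python 3.11.15 with scipy 1.17.1. Figures used matplotlib 3.10.9. Code was tested on simulated data. The members and lists were chosen with earlier results of these data known. Values were given for the C1q chains, Csf1r, Ptprc, Cd68, Lyz2, Mrc1, the platelet genes and Il1b, for members called in a treatment contrast or interaction, and for the 3 largest differences per LEC contrast. Alternatives were a pseudocount of 0.1 TPM, no filter, no covariates, 1 surrogate variable, quantile normalization, the number of genes detected as a covariate, 2 groups alone and each library left out. The platelet relations, and their alternative with a pseudocount of 0.1 TPM, were chosen after seeing the data.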

Additional observations from a re-analysis of the deposited data

Results flagged for a closer look

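Of 120 sets of values of 1 member in 1 group of 4 or 5 libraries, 18 had a highest or lowest library set apart from the others by more than Dixon's limit. That limit flags about 1 in 20 groups by chance only if the values are normally distributed. Here it was applied to TPM that were not put on a log scale. All flags but that of Mrc1 in cardiomyocytes were for a highest value. The 18 of 120 therefore cannot be read as an excess over chance, and members that move together are not independent.

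In heart LECs, ctrl library 3 held 7.72 TPM of C1qb and ctrl library 4 held 2.34 TPM of C1qc, each beside 3 libraries listed at 0. Il1b at 15.0 TPM and Fcrls at 1.29 TPM were set apart in ctrl library 1, Ppbp at 12.0 TPM in angII library 2, and Ms4a7 at 0.848 TPM in angII library 3. In diaphragm LECs, Ptprc was 45.6 TPM in angII library 3, against 9.17 TPM in the next library. In angII library 1 of that population C1qa was 28.6 TPM, Cd68 8.43 TPM and Ms4a7 3.02 TPM, Trem2 was 3.26 TPM in angII library 5, and Fcrls was 1.82 TPM in ctrl library 2.

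In heart BECs, Gp9 was 18.1 TPM in ctrl library 3, against 9.34 TPM in the next. Trem2 at 1.52 TPM and Ms4a7 at 2.94 TPM were set apart in angII library 1, and Ptprc at 5.71 TPM in angII library 2. In cardiomyocytes, Csf1r was highest at 35.4 TPM in ctrl library 4 and Mrc1 was lowest at 4.97 TPM in ctrl library 2.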

How the results depend on the processing

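In cardiomyocytes, the number of members called in angII against ctrl was 0 with no filter on low values, 16 with 1 surrogate variable, 6 under quantile normalization, 18 with the number of genes detected as a covariate and 15 with only those groups fitted, and 0 to 1 with each library left out, against 2 as reported. For angII+VEGFC against ctrl the same alternatives gave 0, 13, 8, 18 and 0, and 0 to 17 with each library left out, against 3. The cause was not tested. With Ptprc as the reference, 1 relation in heart LECs and 2 in diaphragm LECs passed, against 0 with C1qa. With the number of genes detected as a covariate, the median member difference in heart LECs went from 0.61 to -0.42 in angII against ctrl and from 0.32 to 1.499 in angII+VEGFC against angII, and in diaphragm LECs from 0.26 to 1.19 in angII against ctrl. Of the named values, C1qc in heart LECs in angII against ctrl reversed, to -0.49. In sorted endothelium 0 members were called in every treatment contrast under each of these alternatives and with each library left out. The mouse as a replicate block left 0 members called in the interactions, and without the block the population comparisons gave 6, 5 and 32 members. Quantile normalization and the number of genes detected each moved the median of all genes by over 0.1 in several contrasts, by -0.24 and -0.28 in heart LEC angII against ctrl. Unknown depth limits every value near 0.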
